A study of Mus musculus with 9 samples.

Results

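Expression of the solute carriers, the largest family of membrane transport proteins, was described in mouse regulatory T cells (Tregs) with and without Ezh2. The genes were the protein-coding ones of the count table with a symbol that starts with Slc and a digit and a mean of at least 1 CPM (a gene's count divided by its library's total, times 1e6) over the 9 libraries. A named list of carriers of amino acids, glucose and lactate was left out (Slc7a5, Slc3a2, Slc7a1, Slc7a6, Slc7a11, Slc1a4, Slc1a5, Slc38a1, Slc38a2, Slc43a1, Slc2a1 and Slc16a3). Other carriers of these substrates, such as Slc2a3 and Slc16a1, were kept. Of 371 protein-coding Slc genes, 12 were left out by name, 182 were below 1 CPM and 177 were kept, among 43432 identifiers in the table. All 177 passed the filter on low counts. Of the 177, 3 carry the symbol without being carriers: Slc9a3r1 encodes a scaffold that binds carriers and receptors, and Slc4a1ap and Slc7a6os are named after a neighbour or partner. Just below the limit were Slc7a8 at a mean of 0.982 CPM, Slc7a3 at 0.901 CPM and Slc22a2 at 0.833 CPM, and just above it Slc22a23 at 1.08 CPM, Slc35d3 at 1.15 CPM and Slc25a29 at 1.27 CPM.

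The 9 libraries came from Tregs of C57BL/6 mice, sorted as CD62L-high and cultured for 4 days with beads that carry antibodies to CD3 and CD28 and with 2000 U/ml IL-2. All 9 carried a Cre recombinase fused or linked to GFP at Foxp3 (Foxp3-Cre-GFP), so that Cre is made in Foxp3-expressing cells, and the reporter R26-LSL-RFP. The 4 Ezh2-deficient libraries were Ezh2-fl/fl, with exons of both Ezh2 alleles flanked by the sites that Cre cuts. Of the 5 WT libraries, replicates 2 to 5 were Ezh2-+/+ and replicate 1 was Ezh2-fl/+ by its label. Sex and age are not in the labels. Samples within a group are biological replicates per the series' design, and p-values measure the spread between these cultures.

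Solute carriers move ions, nutrients, vitamins, nucleotides and metabolites across the plasma membrane and the membranes of mitochondria, lysosomes, Golgi and secretory vesicles, mostly by exchange or by cotransport with an ion. In activated T cells they set the supply of fuel, one-carbon donors and metal ions for growth, and ion carriers set cell volume and pH. EZH2 is the enzyme of Polycomb repressive complex 2 that methylates histone H3, and the complex is known to keep many CpG-rich promoters of developmental and tissue-restricted genes silent.

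Library totals ranged from 33718125 to 62201921 counts in the Ezh2-deficient group and from 32469450 to 59796319 in the WT group. Levels below are counts scaled to the library total with edgeR's normalization factors (CPM). Ezh2 itself was at 152, 167, 164 and 159 CPM in Ezh2-deficient replicates 1 to 4 and at 268, 332, 288, 233 and 360 CPM in WT replicates 1 to 5, a log2 fold change of -0.88 over the whole gene with no overlap. Counts per gene include exons outside the deleted part, so the remaining level does not measure functional transcript. The mean log2(CPM + 1) of 25 genes of glycolysis and the response to hypoxia split the libraries in a way the groups do not explain. It was 7.43 to 7.71 in Ezh2-deficient replicates 1 and 4 and WT replicates 1, 2 and 4 (high score) and 6.11 to 6.20 in Ezh2-deficient replicates 2 and 3 and WT replicates 3 and 5 (low score). Cd8a, a CD8 T cell gene, was at 28.3 to 97.6 CPM in the high-score libraries and 0.361 to 41.1 CPM in the low-score ones. Xist was at 2108 to 3257 CPM in Ezh2-deficient replicates 1 and 3 and WT replicates 1 and 4 and at 0.315 to 3.35 CPM in the others. Of 6 Treg genes, Foxp3 rose (0.30) and the others did not pass the test. The 5 myeloid genes summed to 19.4 to 27.4 CPM in the Ezh2-deficient and 11.2 to 18.5 CPM in the WT libraries. Most of that was Itgam, which rose from 12.2 to 21.2 CPM, and the defining myeloid genes Lyz2 and Csf1r were at 0.130 CPM or less in every library. Of the B cell genes Cd79a fell (0.885 against 2.33 CPM), of the erythroid genes Hba-a1 rose (5.66 against 1.72 CPM), and of the epithelial genes Krt18 rose and Cdh1 fell, with Krt8 at 0 in all 9 libraries. The part of such cells in the results was not tested. In bulk samples, fewer cells of a type and less RNA per cell cannot be told apart.

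Promoter sequences were available from RefSeq for 136 of the 177 genes (GRCm38.p6, 250 bases upstream of the annotated start). The dinucleotide CG, which reads the same on both strands, was counted in each, and 99.3% of the 136 held at least 1, against 92.1% of the 32851 promoters in the table. Its median number was 15 in the 136 carriers and 6 in all promoters. These sets are unlike: each carrier has 1 promoter, and the 32851 promoters cover 27025 gene symbols with no limit on level. Among carriers that rose at least 2-fold the median was 8.5 (n = 8), among those that rose by less it was 14 (n = 15), among those that fell it was 17 (n = 16), and among those not past the test it was 15 (n = 97). The sets differ in size and overlap in range, and no test was made of these medians. Promoters are shown for the 4 largest rises and the largest fall among called carriers whose groups did not overlap. Only carriers with a RefSeq start near the GENCODE start were eligible. The next fall by this rule, Slc2a8, had 7 CG and is not shown. Sequences run 5′ to 3′, with each CG in capitals:
Slc17a8, chr10:89621250-89621499, minus strand: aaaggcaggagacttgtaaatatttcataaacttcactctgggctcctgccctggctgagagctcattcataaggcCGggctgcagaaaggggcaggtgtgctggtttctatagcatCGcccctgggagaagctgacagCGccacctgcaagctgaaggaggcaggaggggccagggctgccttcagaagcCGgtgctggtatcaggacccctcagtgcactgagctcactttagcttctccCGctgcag
Slc17a7, chr7:45163671-45163920, plus strand: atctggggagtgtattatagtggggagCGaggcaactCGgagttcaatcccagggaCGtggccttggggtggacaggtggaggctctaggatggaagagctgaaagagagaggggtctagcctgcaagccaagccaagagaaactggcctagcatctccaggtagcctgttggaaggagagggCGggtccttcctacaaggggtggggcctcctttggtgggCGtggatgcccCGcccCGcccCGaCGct
Slc12a5, chr2:164960596-164960845, plus strand: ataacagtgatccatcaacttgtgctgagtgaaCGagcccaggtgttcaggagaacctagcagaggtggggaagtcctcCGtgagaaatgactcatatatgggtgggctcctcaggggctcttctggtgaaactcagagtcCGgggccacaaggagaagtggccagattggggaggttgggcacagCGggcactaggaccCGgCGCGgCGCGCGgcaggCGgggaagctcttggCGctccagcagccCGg
Slc30a4, chr2:122702664-122702913, minus strand: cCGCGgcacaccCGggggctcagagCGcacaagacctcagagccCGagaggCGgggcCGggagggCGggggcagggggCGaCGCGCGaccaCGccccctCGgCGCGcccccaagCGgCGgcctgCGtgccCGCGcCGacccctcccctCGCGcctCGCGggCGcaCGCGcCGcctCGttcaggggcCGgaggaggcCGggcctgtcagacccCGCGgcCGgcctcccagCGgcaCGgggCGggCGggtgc
Slc19a1, chr10:77032489-77032738, plus strand: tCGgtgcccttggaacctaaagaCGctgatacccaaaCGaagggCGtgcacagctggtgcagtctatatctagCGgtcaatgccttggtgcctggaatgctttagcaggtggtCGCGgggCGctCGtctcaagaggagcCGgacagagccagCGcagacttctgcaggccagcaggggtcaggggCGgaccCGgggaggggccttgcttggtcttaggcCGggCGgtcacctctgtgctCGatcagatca
Slc17a8 had 5 CG, Slc17a7 had 9, Slc12a5 had 13, Slc19a1 had 16 and Slc30a4 had 40. The RefSeq start of Slc19a1 lies 498 bases from the gene's start in GENCODE, and the 4 others lie within 44 bases. Some carriers counted above but not shown lie much farther. Among those that rose these include Slc12a7 (30566 bases), Slc2a9 (19758 bases) and Slc6a19 (12229 bases). Binding and histone data were not used here, so these are descriptions of the sequences only.

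Between Ezh2-deficient and WT Tregs, 28 of the 177 carriers rose and 22 fell, and 127 did not pass the test (edgeR quasi-likelihood F-test, Benjamini-Hochberg adjusted p under 0.05 over all 13685 tested genes). The called share was 28.2%, against 21.9% of all tested genes and 24.1% of the 10969 tested protein-coding genes with a mean of at least 1 CPM. By direction, 15.8% rose, against 13.1% of all tested genes and 13.8% of the protein-coding ones at 1 CPM or more. The share that fell was 12.4%, against 8.8% and 10.3%. The largest rises were Slc17a8 and Slc17a7, carriers that fill synaptic vesicles with glutamate, Slc9a2, a sodium-proton exchanger of epithelia, and Slc12a5, the potassium-chloride cotransporter of neurons. The largest falls were Slc2a6, a lysosomal hexose carrier, Slc4a11, a sodium and proton carrier of the bicarbonate carrier family, and Slc19a1, the reduced folate carrier.

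The median log2 fold change of the 177 carriers was -0.09, and that of all tested genes was 0.00. Of the 28 rises 10 were at least 2-fold, and of the 22 falls 4 were. The 4 Ezh2-deficient libraries did not overlap the 5 WT libraries for 41 carriers (23.2%), against 21.2% of all tested genes, and 34 of the 41 were among the called ones. Of the 7 others, Slc37a3 (0.24) was nearest to the threshold with an adjusted p of 0.0519. The genes that did not pass the test had log2 fold changes from -1.27 to 0.96, and 88 of the 127 were within 0.25 of 0. The transcripts of all 177 carriers together took 0.869 to 0.884% of counts in the Ezh2-deficient and 0.877 to 0.924% in the WT libraries, and these ranges overlap.

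Of the 10 rises of at least 2-fold, 7 were among the 42 carriers with a mean below 10 CPM, where 9 rose and 3 fell. These 7 were 16.7% of the 42, and rises of that size were called for 11.3% of the 2297 tested protein-coding genes with a mean from 1 to 10 CPM. Slc12a5, Slc22a23 and Slc9a2, 3 of the 7, had a WT mean under 1 CPM and so reached the limit of 1 CPM only through the Ezh2-deficient libraries. The same limit left out tested carriers that changed at a lower level, such as Slc22a2, which fell. Among the 60 carriers at 50 CPM or more, 8 rose and 9 fell, and the only change of at least 2-fold was the rise of Slc30a4. That was 1.67% of the 60, and rises of that size were called for 1.19% of the 4797 tested protein-coding genes at this level. Of the 177, 5 had a mean under 1 CPM in 1 of the groups, and the 3 called among these 5 were the same Slc12a5, Slc22a23 and Slc9a2.

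**Figure D1:**
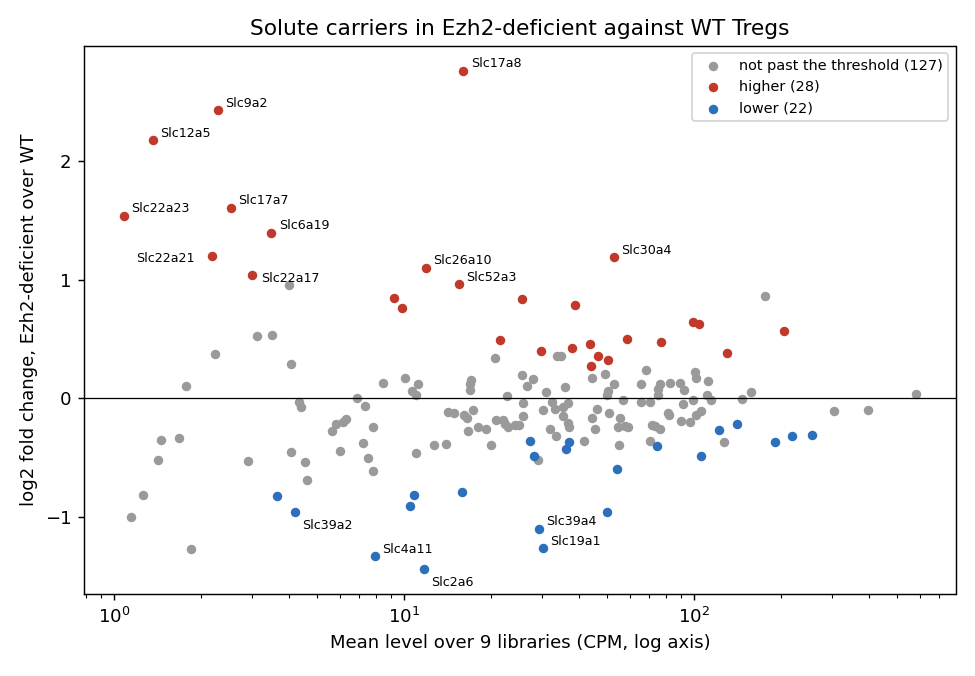
Each point is 1 of the 177 solute carriers, with its mean level over the 9 libraries (CPM, log axis) against its log2 fold change, Ezh2-deficient over WT. Red points rose (28), blue points fell (22) and grey points did not pass the test (127). Of the 10 rises of at least 2-fold, 7 lie below 10 CPM, and Slc30a4 is the 1 above 50 CPM.

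Within the high-score libraries alone, 18 carriers were higher and 12 lower, 30 of 177 (16.9%) against 12.6% of all genes tested there. Within the low-score libraries alone, with 2 libraries a group, 7 were higher and 3 lower, 10 of 177 (5.65%) against 4.13%. With the score as a covariate in the fit of all 9 libraries, 31 were higher and 27 lower (32.8% against 28.9% of all genes), and all 50 calls were kept. Without the library of highest Cd8a in each group, 22 were higher and 13 lower (19.8% against 14.7%). Without WT replicate 1, the Ezh2-fl/+ culture, 22 were higher and 19 lower (23.2% against 20.8%), and 38 of the 50 calls were kept. Without Ezh2-deficient replicate 3, 21 were higher and 11 lower (18.1% against 14.1%). The share of all genes called rose or fell with that of the carriers in each of these fits.

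The carriers were placed in 16 groups by SLC family number, each named for a main substrate that single members need not carry. The cation-chloride, the organic cation and anion, and the nucleoside and nucleobase groups had rises and no fall, 3 of 7, 3 of 6 and 1 of 6. The nucleobase carrier Slc43a3, which fell, was counted with the amino acid carriers by its family. Fatty acid carriers had 1 fall among 6 and no rise. Carriers of iron, copper, magnesium and heme (7), of monocarboxylates (4) and the sodium-calcium exchanger family (1) had no called member. The mitochondrial carriers, the largest group with 38 genes, had 7 falls and 4 rises (28.9% called). Called shares by group ran from 0 to 50%, against 28.2% of all 177 carriers and 21.9% of all tested genes. Shares were not tested between groups.

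**Figure D2:**
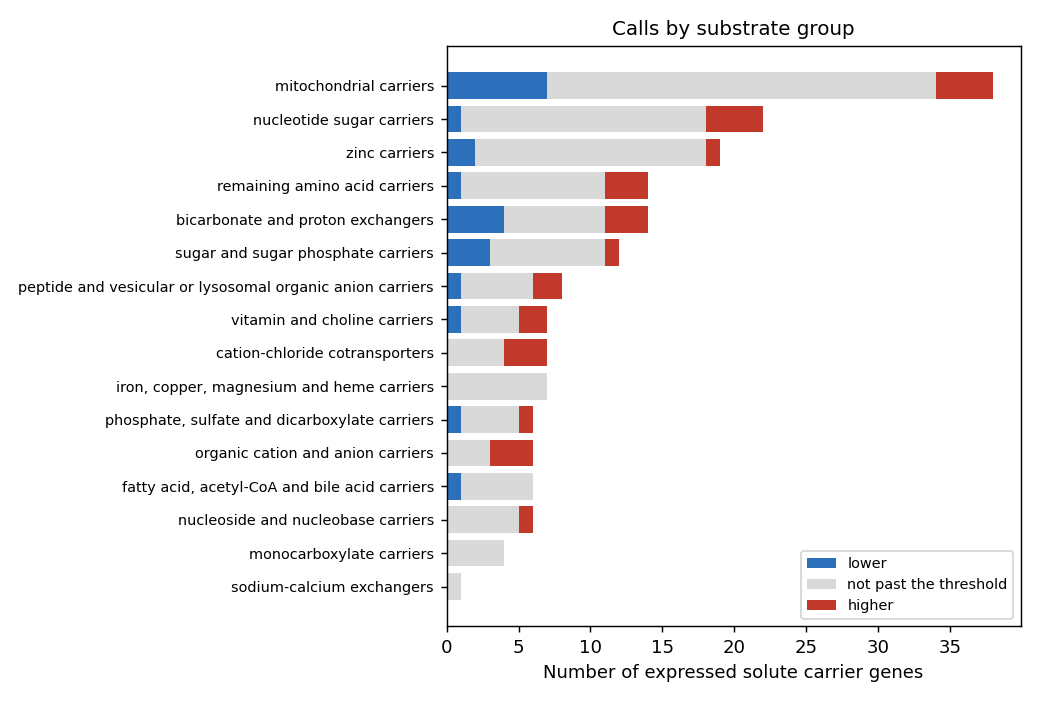
Number of carrier genes in each of 16 substrate groups (horizontal axis) that fell (blue), did not pass the test (grey) or rose (red) in Ezh2-deficient against WT Tregs. The cation-chloride cotransporters have 3 rises and no fall, the mitochondrial carriers 4 rises and 7 falls.

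Vesicular and lysosomal carriers of organic anions and peptides held the largest rise of all. Slc17a8 (VGLUT3, chr10:89574020-89621253, minus strand) was at 29.1, 24.8, 27.4 and 40.8 CPM in Ezh2-deficient replicates 1 to 4 and at 6.81, 4.07, 1.49, 4.55 and 5.38 CPM in WT replicates 1 to 5. Its lowest Ezh2-deficient value was above its highest WT value, and the means were 30.5 ± 7.07 (SD, n = 4) and 4.46 ± 1.96 CPM (n = 5). The log2 fold change was 2.76 (SE 0.34, adjusted p = 0.000466), or 6.77-fold, and it was 2.75 in the high-score and 2.87 in the low-score libraries. Slc17a7 (VGLUT1, chr7:45163949-45176142, plus strand), its close relative in glutamatergic neurons, was at 3.97, 2.81, 3.55 and 5.88 CPM against 1.42, 1.48, 1.004, 1.35 and 1.40 CPM. The groups did not overlap, and the log2 fold change was 1.61 (SE 0.25, adjusted p = 0.000987).

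The remaining 6 genes of this group did not follow those rises. Slc15a3, a lysosomal carrier of histidine and small peptides known from immune cells, fell from 13.2 ± 4.52 to 7.01 ± 2.18 CPM (log2 fold change -0.91, adjusted p = 0.0323), with overlap between the groups. That call did not hold in 6 of 9 fits that left out 1 library each (Ezh2-deficient replicate 1, 2 or 3, or likewise WT replicate 2, 3 or 4), where the adjusted p was 0.0527 to 0.0814 and the log2 fold change -0.91 to -0.72. Slc17a9, the vesicular nucleotide carrier and the most abundant of the group per length (49.1 CPM per kb of exon), was at 161 ± 21.5 and 154 ± 19.7 CPM (0.06, adjusted p = 0.746).

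**Figure D3:**
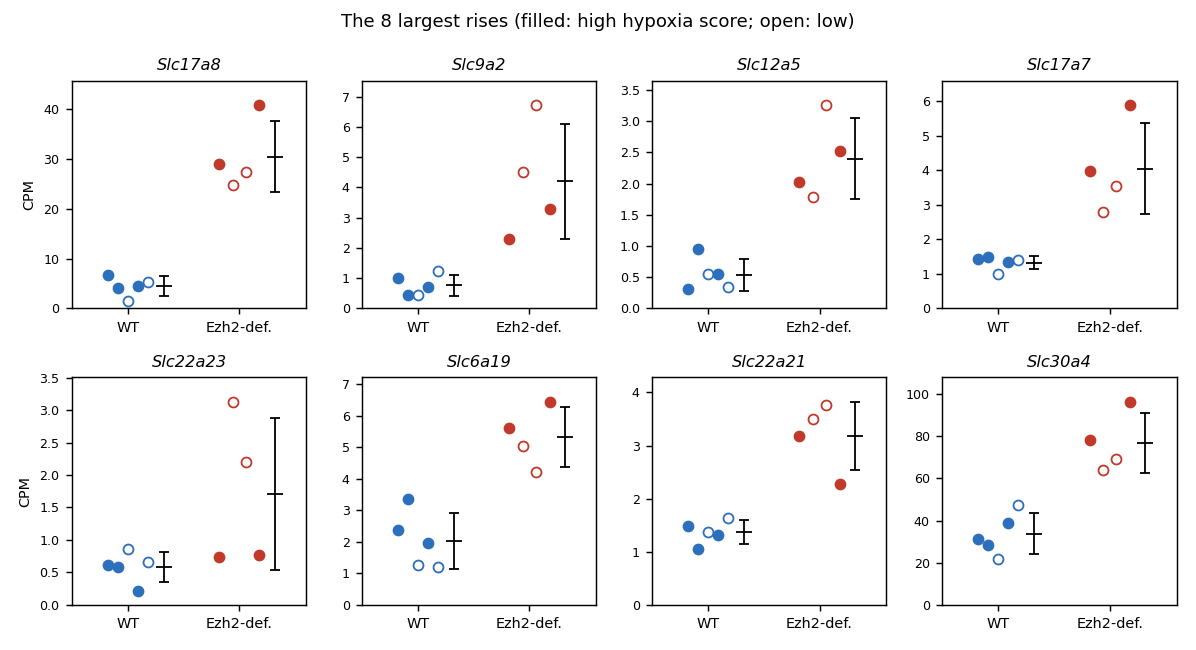
Level (CPM, vertical axes from 0) of the 8 carriers with the largest rises in each WT (blue) and Ezh2-deficient (red) library. Filled points are libraries with a high hypoxia score, open points those with a low score, and bars show the mean and SD. For Slc17a8 the 4 Ezh2-deficient values lie between 24.8 and 40.8 and the WT values at 6.81 or below; for Slc22a23 the groups overlap.

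Sodium-proton exchangers raise pH in the cytosol or tune it in endosomes and Golgi, and bicarbonate carriers change pH by moving bicarbonate. Of the 14 genes in this group, 3 rose and 4 fell. Slc9a2 (NHE2, chr1:40680574-40769273, plus strand), a plasma membrane exchanger known from gut and kidney epithelium, was at 2.28, 4.50, 6.71 and 3.30 CPM against 0.998, 0.432, 0.430, 0.714 and 1.23 CPM. The groups did not overlap, and the 2 highest values were the low-score Ezh2-deficient libraries. Its log2 fold change was 2.43 (SE 0.38, adjusted p = 0.00121). Slc9a2 reached the limit of 1 CPM only through the Ezh2-deficient libraries, so the choice of genes favoured a rise. The exchangers of the trans-Golgi network and of endosomes also rose: Slc9a7 from 6.80 ± 0.790 to 12.3 ± 2.62 CPM (0.85, adjusted p = 0.00364) and Slc9a9 from 18.8 ± 5.01 to 33.8 ± 2.85 CPM (0.84, adjusted p = 0.00487).

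Slc4a8, a sodium-driven chloride-bicarbonate exchanger, was at 65.2, 63.0, 63.6 and 62.1 CPM against 84.4, 89.3, 82.6, 82.1 and 79.7 CPM. It fell by 0.40 on the log2 scale (SE 0.07, adjusted p = 0.00173), a small change with little spread within either group and no overlap. Slc4a11 fell from 10.9 ± 4.37 to 4.30 ± 2.04 CPM (-1.33, adjusted p = 0.0152), and Ezh2-deficient replicate 4 and WT replicate 2 had the same level of 7.31 CPM. The widely expressed bicarbonate carrier Slc4a7 (0.03, adjusted p = 0.861) did not pass the test. Slc9a5 (-0.37, adjusted p = 0.0443) and the scaffold Slc9a3r1 (-0.31, adjusted p = 0.0451) fell. Their calls failed on leaving out Ezh2-deficient replicate 1, 3 or 4, or likewise WT replicate 1, 2 or 3, and that of Slc9a3r1 also without WT replicate 4, with adjusted p of 0.0561 to 0.0858 for Slc9a5 and 0.0561 to 0.0901 for Slc9a3r1.

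Cation-chloride cotransporters set the chloride content and volume of a cell: the potassium-chloride members export chloride with potassium, and Slc12a2 imports sodium, potassium and chloride. Slc12a7 (KCC4, chr13:73733094-73816754, plus strand) was at 91.1, 95.7, 102 and 74.8 CPM against 66.7, 63.8, 68.5, 67.1 and 61.3 CPM, with no overlap (0.47, SE 0.09, adjusted p = 0.00374). Slc12a5 (KCC2, chr2:164960802-164999731, plus strand), whose expression is known as neuronal, was at 2.03, 1.78, 3.25 and 2.52 CPM against 0.304, 0.956, 0.545, 0.555 and 0.336 CPM. It did not overlap either, and its log2 fold change was 2.17 (SE 0.36, adjusted p = 0.0016). Slc12a5 likewise reached the limit of 1 CPM only through the Ezh2-deficient libraries.

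The importer Slc12a2 was at 41.2 ± 4.79 and 49.2 ± 6.15 CPM (-0.26, adjusted p = 0.118), and the potassium-chloride cotransporter Slc12a4 at 22.3 to 34.9 CPM over all 9 libraries (0.16, adjusted p = 0.339). Neither passed the test. Without Ezh2-deficient replicate 3, without WT replicate 1 or without the highest-Cd8a libraries, 3 of 7 were higher each time, and in the last of these 1 was lower. Within the high-score libraries alone 2 of the 7 were higher, and within the low-score libraries alone 0 were.

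Among 7 tested kinases and adaptors that act on these cotransporters, 3 rose and 0 fell (42.9% called, against 21.9% of all tested genes). They were Stk39 (SPAK, which phosphorylates the cotransporters) from 69.2 ± 9.55 to 103 ± 23.3 CPM (0.57, adjusted p = 0.0178), the ubiquitin ligase scaffold Cul3 (0.35, adjusted p = 0.0337) and the chloride-sensing kinase Wnk1 (0.30, adjusted p = 0.0491). Within the high-score libraries or without Ezh2-deficient replicate 3, 1 of the 7 was higher, without WT replicate 1 it was 2, and without the highest-Cd8a libraries none was by edgeR. The kinase Oxsr1 was at 130 ± 13.5 and 140 ± 18.4 CPM (-0.11, adjusted p = 0.483).

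Sodium and calcium pumps build the gradients that many of these carriers use. Of 12 tested subunits 3 rose and 1 fell (33.3% called, against 21.9% of all tested genes). Atp1b2, a beta subunit of the sodium pump, was at 5.92, 6.19, 9.18 and 4.27 CPM against 1.23, 0.555, 0.430, 0.608 and 2.07 CPM, a rise with no overlap (2.66, SE 0.42, adjusted p = 0.00147). The plasma membrane calcium pump Atp2b1 rose from 211 ± 29 to 313 ± 50.8 CPM (0.57, adjusted p = 0.00767).

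**Figure D4:**
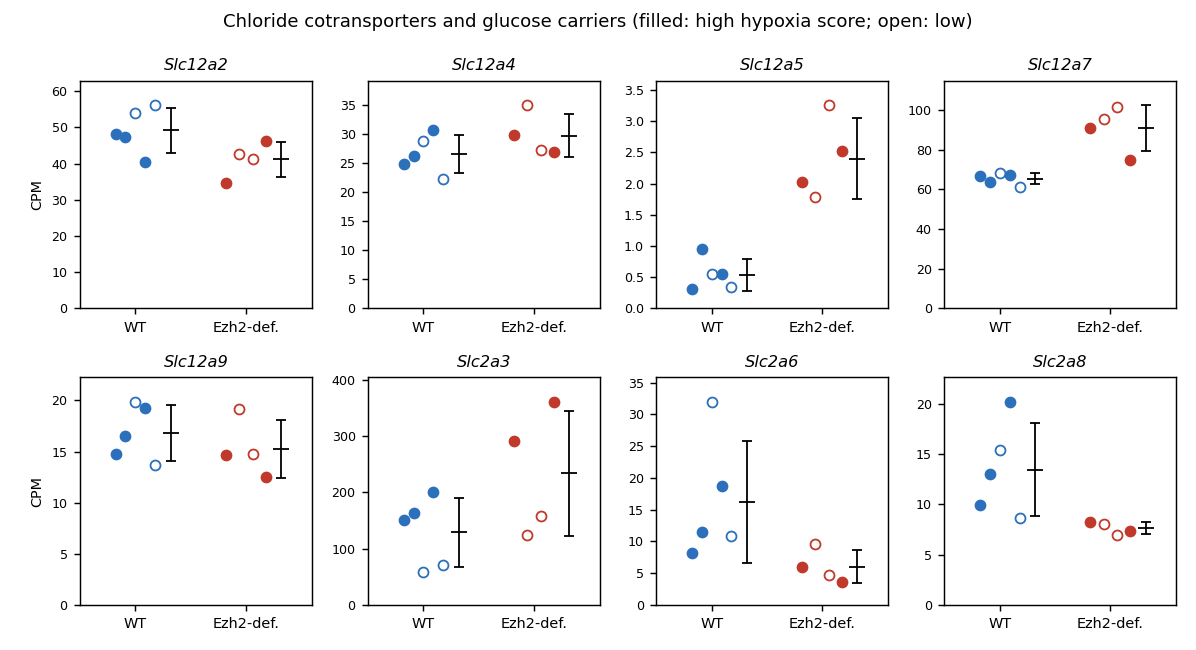
Level (CPM, vertical axes from 0) of 5 cation-chloride cotransporters and 3 glucose carriers in each WT (blue) and Ezh2-deficient (red) library, with mean and SD bars. Slc12a5 and Slc12a7 do not overlap between the groups, and Slc12a2, Slc12a4 and Slc12a9 do. For Slc2a3 the filled (high-score) points lie above the open (low-score) points within each group.

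Zinc carriers divide into SLC30 proteins, which move zinc out of the cytosol into vesicles or out of the cell, and SLC39 proteins, which move it in. Of 19 genes 1 rose and 2 fell. Slc30a4 (ZnT4, chr2:122681233-122702663, minus strand), which loads zinc into vesicles, was at 78.3, 63.9, 69.0 and 96.4 CPM against 31.4, 28.7, 22, 39.1 and 47.3 CPM. Every Ezh2-deficient value was above every WT value, and the rise was 2.28-fold (log2 1.19, SE 0.20, adjusted p = 0.0021).

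The falls were in importers. Slc39a4 (ZIP4, chr15:76612383-76617384, minus strand), the importer of intestinal zinc uptake, was at 15, 21.3, 16.6 and 18.5 CPM against 27, 31.8, 58.5, 45.7 and 28.4 CPM, with no overlap (-1.10, SE 0.23, adjusted p = 0.00638). Slc39a2 (ZIP2) fell from 5.36 ± 2.02 to 2.76 ± 0.637 CPM (-0.96, adjusted p = 0.0299). Its exons overlap Mettl17 (33.5 CPM) on the same strand, and its call failed on leaving out Ezh2-deficient replicate 1 or 4, or likewise WT replicate 2 or 3 (adjusted p 0.0538 to 0.0683). The zinc-responsive exporter Slc30a1 (0.12, adjusted p = 0.64) and the plasma membrane importer Slc39a1 (-0.24, adjusted p = 0.153) did not pass the test. Of 8 genes of zinc and copper buffering, only the copper pump Atp7a rose, from 15.9 ± 2.96 to 25.7 ± 1.88 CPM (0.69, adjusted p = 0.00447), and the zinc-binding metallothioneins Mt1 and Mt2 did not pass the test.

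Carriers of sugars had 1 rise and 3 falls among 12 genes. Slc2a6 (GLUT6), a lysosomal hexose carrier, was at 6.03, 9.56, 4.72 and 3.62 CPM against 8.22, 11.5, 32, 18.7 and 10.9 CPM (-1.44, SE 0.43, adjusted p = 0.0406). Only Ezh2-deficient replicate 2 lay within the WT range, and the WT values spread about as widely as the difference. Its call failed on leaving out Ezh2-deficient replicate 1, 3 or 4, or likewise WT replicate 4 (adjusted p 0.0771 to 0.101). Slc2a8 (GLUT8), an intracellular hexose carrier, was at 8.23, 8.03, 6.98 and 7.33 CPM against 9.92, 13, 15.4, 20.2 and 8.66 CPM, with no overlap (-0.81, SE 0.22, adjusted p = 0.0216), and lost its call on leaving out Ezh2-deficient replicate 3 (-0.79, adjusted p = 0.0571).

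Slc5a3, the sodium-coupled carrier of myo-inositol, fell by 0.43 on the log2 scale (adjusted p = 0.0432). It shares exon bases with Mrps6 on the same strand, and its call failed on leaving out Ezh2-deficient replicate 2 or 3, or likewise WT replicate 3 or 4 (adjusted p 0.0701 to 0.0922). Slc2a9, best known as a urate carrier, rose from 18.2 ± 1.79 to 25.7 ± 4.73 CPM (0.50, adjusted p = 0.0185), but on leaving out Ezh2-deficient replicate 1 or 3 the log2 fold change was 0.38 to 0.41 and the adjusted p 0.0762 to 0.0823.

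Slc2a3 (GLUT3, a high-affinity glucose carrier of neurons and lymphocytes) was at 292, 125, 158 and 360 CPM against 151, 163, 58.2, 201 and 71.5 CPM (0.86, SE 0.46, adjusted p = 0.218). The groups overlapped, and the level moved with the hypoxia score. Among high-score libraries the 2 Ezh2-deficient values of 292 and 360 CPM were above the 3 WT values of 151 to 201 CPM (log2 difference 0.92, adjusted p = 0.00605). Among low-score libraries the values of 125 and 158 CPM were above the WT values of 58.2 and 71.5 CPM (1.10, adjusted p = 0.0263). With the score as a covariate the log2 difference was 1.01 (adjusted p = 5.95e-05).

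Mitochondrial carriers of the SLC25 family bring metabolites, nucleotides and cofactors across the inner membrane. Together the 38 genes summed to 2023 to 2095 CPM in the Ezh2-deficient and 2123 to 2224 CPM in the WT libraries, 2053 ± 30.8 against 2177 ± 43.4 CPM, with no overlap. The falls were among carriers of cofactors, of citrate and amino acids and of ADP and ATP, and the rises were among calcium-regulated carriers of adenine nucleotides and others.

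Slc25a13 (citrin), which exchanges aspartate for glutamate, was at 9.86, 11.9, 10.4 and 12.9 CPM against 17.5, 19.6, 22.4, 19.9 and 18 CPM, without overlap (-0.79, SE 0.12, adjusted p = 0.000947). Its paralogue Slc25a12 did not overlap either, but the difference was small (-0.12, adjusted p = 0.207). Slc25a1, which exports citrate for lipid synthesis, was at 45.4, 43.2, 38.5 and 42.2 CPM against 55.1, 62.2, 69.0, 75.0 and 58.8 CPM (-0.60, SE 0.10, adjusted p = 0.00173).

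Slc25a26, which carries the methyl donor S-adenosylmethionine, fell from 4.54 ± 1.07 to 2.56 ± 0.336 CPM (-0.82, adjusted p = 0.0166). Its exons overlap Lrig1 (203 CPM) on the opposite strand, and strand use in counting is not given in the sources used here. The ADP/ATP carriers Slc25a4 (-0.37, adjusted p = 0.00595) and Slc25a5 (-0.32, adjusted p = 0.0477) fell, and the glutamate carrier Slc25a22 fell (-0.49, adjusted p = 0.049). The calls of Slc25a5 and of Slc25a22 did not hold in 6 of 9 fits, those without Ezh2-deficient replicate 1, 3 or 4, or likewise WT replicate 1, 3 or 4, with adjusted p of 0.0578 to 0.101 and 0.0519 to 0.0958.

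Slc25a23, a calcium-regulated carrier of ATP-magnesium and phosphate, was at 48.6, 49.8, 54.8 and 49.8 CPM against 24.9, 28.3, 26.8, 36.8 and 30.5 CPM. All 4 Ezh2-deficient values were above all WT values (0.78, SE 0.11, adjusted p = 0.000581), and the call held under all 21 alternatives. Its paralogue Slc25a24 rose from 83.4 ± 19 to 129 ± 20.9 CPM (0.63, adjusted p = 0.0179), but not without Ezh2-deficient replicate 4 (0.49, adjusted p = 0.0624). Slc25a36, a pyrimidine nucleotide carrier, rose by 0.64 (adjusted p = 0.0159), but not without Ezh2-deficient replicate 1 or 4 (adjusted p 0.0556 to 0.0625), and Slc25a27, an uncoupling protein family member known from brain, rose from 7.49 ± 0.870 to 12.7 ± 1.34 CPM (0.76, adjusted p = 0.00202). The phosphate carrier Slc25a3, among the most abundant carriers, was at 385 ± 16.9 and 410 ± 26.7 CPM (-0.09, adjusted p = 0.376). None of 8 tested genes of the mitochondrial calcium uniporter passed in the main edgeR fit, where 2 had an unadjusted p under 0.05, and none passed by DESeq2 or limma-voom. With the hypoxia score as a covariate 1 was higher and 1 lower, and within the high-score libraries 1 was lower.

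**Figure D5:**
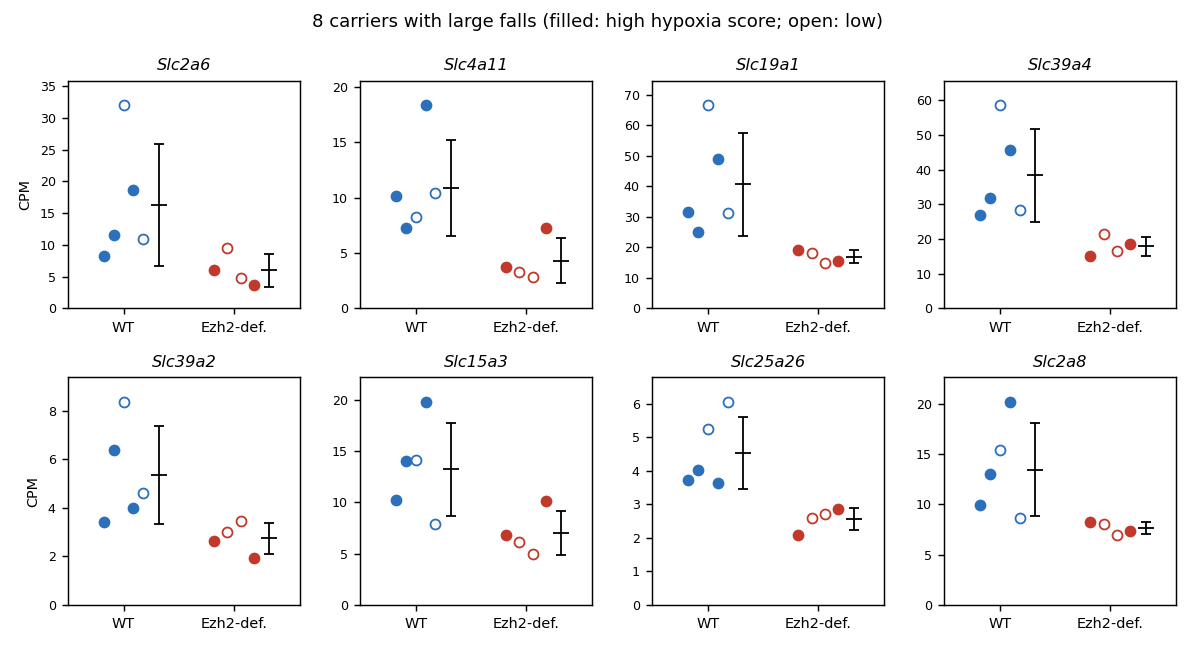
Level (CPM, vertical axes from 0) of 8 carriers with large falls in each WT (blue) and Ezh2-deficient (red) library, with mean and SD bars. Filled points are high-score and open points low-score libraries. The WT values of Slc19a1, Slc39a4 and Slc2a6 are highest in replicate 3, and the Ezh2-deficient values of Slc19a1 lie between 14.8 and 19.3.

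Carriers of vitamins and choline moved both ways, 2 of 7 up and 1 down. Slc19a1 (chr10:77032241-77061002, plus strand), which imports reduced folates for one-carbon metabolism and nucleotide synthesis, was at 19.3, 18.3, 14.8 and 15.5 CPM against 31.7, 25.1, 66.5, 48.8 and 31.4 CPM. The groups did not overlap, with WT replicate 3 highest, and the fall was 2.40-fold (log2 -1.26, SE 0.26, adjusted p = 0.00765). Slc52a3, a riboflavin carrier known from intestine, was at 20.1, 25.7, 20.1 and 18.7 CPM against 7.69, 10, 9.38, 15.1 and 12.1 CPM, with no overlap (0.96, SE 0.18, adjusted p = 0.00314). The choline carrier Slc44a1 rose from 37.6 ± 4.83 to 51.7 ± 6.32 CPM (0.46, adjusted p = 0.0123), and its abundant relative Slc44a2 was at 590 ± 20.4 and 575 ± 49.7 CPM (0.04, adjusted p = 0.779).

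Among the 14 remaining amino acid carriers 3 rose and 1 fell. Slc6a19, the sodium-coupled carrier of neutral amino acids of kidney and intestine, was at 5.61, 5.02, 4.21 and 6.44 CPM against 2.38, 3.36, 1.26, 1.96 and 1.20 CPM, with no overlap (1.39, SE 0.29, adjusted p = 0.00623). Slc38a9, the lysosomal arginine sensor upstream of mTORC1, was at 50.6, 37.1, 42.0 and 47 CPM against 33.6, 35.1, 30.4, 33.3 and 32.1 CPM (0.43, SE 0.10, adjusted p = 0.00981). The lysosomal proton-coupled carrier Slc36a1 rose by 0.27 (adjusted p = 0.0231), a call that failed on leaving out Ezh2-deficient replicate 2, 3 or 4, or likewise WT replicate 1, 2 or 3 (adjusted p 0.0506 to 0.093).

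Slc43a3, placed here by family although it is known as a purine nucleobase carrier, fell from 121 ± 12.7 to 86.7 ± 14.1 CPM (-0.48, adjusted p = 0.0112). The taurine carrier Slc6a6, at 36 CPM per kb, was at 292 ± 21.3 and 314 ± 27.9 CPM (-0.10, adjusted p = 0.4). Of 11 tested carriers among the 12 left out by name, 1 rose and 6 fell, with a median of -0.45. Their called share was 63.6%, against 21.9% of all tested genes. Slc7a5, the large neutral amino acid carrier, fell from 171 ± 38 to 85.5 ± 5.23 CPM.

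The 3 rises among carriers of organic cations and anions were at low levels. Slc22a21, a carnitine carrier, was at 3.18, 3.49, 3.76 and 2.28 CPM against 1.49, 1.05, 1.38, 1.32 and 1.65 CPM, with no overlap (1.20, SE 0.23, adjusted p = 0.0036). Slc22a23, which has no settled substrate, was at 0.733, 3.13, 2.20 and 0.764 CPM against 0.609, 0.586, 0.860, 0.212 and 0.654 CPM (1.54, SE 0.49, adjusted p = 0.0432). Only the low-score Ezh2-deficient replicates 2 and 3 were above every WT value.

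Slc22a17, a receptor for the iron-binding protein lipocalin-2, rose from 2.04 ± 1.10 to 4.18 ± 0.821 CPM (1.04, adjusted p = 0.0498). It lost its call in each leave-one-out fit except that without WT replicate 4 (adjusted p 0.0557 to 0.118). Slc22a23 lost its call on leaving out Ezh2-deficient replicate 2 or 3, or likewise WT replicate 1, 2, 4 or 5, with log2 fold changes of 1.04 to 1.57 and adjusted p of 0.0597 to 0.148. Slc22a2, tested but below the 1 CPM limit, fell (-2.69).

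Carriers of nucleotide sugars supply the Golgi and endoplasmic reticulum with donors for glycosylation, and 4 of 22 rose and 1 fell, all by less than 2-fold. Slc35a5 was at 36.8, 33.7, 31.3 and 35.7 CPM against 25.8, 28, 23.6, 25.6 and 27.3 CPM, with no overlap (0.40, SE 0.09, adjusted p = 0.00762). Slc35a1, which carries CMP-sialic acid, rose by 0.35 (adjusted p = 0.0362), Slc35d1, a carrier of UDP-glucuronic acid, by 0.33 (adjusted p = 0.0443), and Slc35b4, a carrier of UDP-sugars, by 0.38 (adjusted p = 0.0496). Slc35e1, which has no settled substrate, fell by 0.22 on the log2 scale (adjusted p = 0.036).

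Most of these calls rested on the whole set of libraries. Slc35b4 and Slc35d1 held only without WT replicate 5 (adjusted p 0.0539 to 0.139 and 0.0646 to 0.141 in the 8 others). Slc35a1 held only without Ezh2-deficient replicate 4, or likewise WT replicate 5 (adjusted p 0.0515 to 0.11 in the 7 others). Slc35e1 failed on leaving out Ezh2-deficient replicate 2, 3 or 4, or likewise WT replicate 1 or 2 (adjusted p 0.0514 to 0.0862). Slc35b1, the ATP/ADP exchanger of the endoplasmic reticulum, was at 56.6 ± 5.53 and 57.0 ± 7.19 CPM (-0.01, adjusted p = 0.952).

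The group of nucleoside and nucleobase carriers had 1 rise among 6. Slc23a2 (0.17, adjusted p = 0.0999) is among the 6 by family number and not by its own substrate. Slc28a2, a concentrative carrier of purine nucleosides, was at 76.0, 59.5, 76.0 and 69.6 CPM against 52.2, 46.4, 50.8, 46.6 and 53.1 CPM, with no overlap (0.50, SE 0.09, adjusted p = 0.00269). The equilibrative carrier Slc29a1 was at 120, 120, 118 and 79.2 CPM against 154, 138, 167, 126 and 123 CPM. Its groups did not overlap, but the difference missed the threshold (-0.37, adjusted p = 0.0667), and with the hypoxia score as a covariate adjusted p was 0.0368.

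Of 6 carriers of phosphate, sulfate and dicarboxylates, Slc26a10 rose from 7.93 ± 1.83 to 16.9 ± 5.69 CPM (1.10, SE 0.25, adjusted p = 0.00951). The low value of 8.85 CPM in Ezh2-deficient replicate 3 overlapped the WT range of 5.16 to 10.3 CPM. Exons of Slc26a10 overlap those of B4galnt1 (159 CPM) on the opposite strand. Slc20a1, the main sodium-coupled phosphate importer of many cells, fell by 0.26 (log2, adjusted p = 0.0372), a call that failed on leaving out Ezh2-deficient replicate 2 or 3, or likewise WT replicate 1 (adjusted p 0.0537 to 0.0697).

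The 6 carriers of fatty acids, acetyl-CoA and bile acids had 1 fall, Slc27a4 (a fatty acid carrier with acyl-CoA synthetase activity), from 30.1 ± 3.53 to 23.4 ± 1.66 CPM (-0.36, adjusted p = 0.0299). The call failed on leaving out Ezh2-deficient replicate 1 or 3, or likewise WT replicate 4 (adjusted p 0.0602 to 0.0729). The group summed to 139 to 144 CPM against 145 to 160 CPM, with no overlap.

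No carrier of iron, copper, magnesium or heme was called in the main edgeR fit, by DESeq2 or by limma-voom. Of the 7, 2 had an unadjusted p under 0.05 by edgeR, and 1 was lower with the hypoxia score as a covariate. The iron carrier Slc11a2 (DMT1) was at 49.6 ± 7.13 and 58.7 ± 3.27 CPM (-0.24, adjusted p = 0.097), and the copper importer Slc31a1 at 52.6 ± 8.38 and 61.9 ± 2.34 CPM (-0.23, adjusted p = 0.115). Of the 4 monocarboxylate carriers none was called in the main edgeR fit or by limma-voom. By edgeR 2 had an unadjusted p under 0.05, 1 was lower by DESeq2, and 1 was lower with the hypoxia score as a covariate. Slc16a1 (MCT1), the lactate and pyruvate carrier, was at 65.5 ± 8.14 and 76.7 ± 4.26 CPM (-0.23, adjusted p = 0.0879). Of 4 tested partners of lactate and pyruvate transport, among them Bsg at 258 ± 82.1 and 289 ± 92.3 CPM, none was called by the 3 tools on all 9 libraries or had an unadjusted p under 0.05. Within the high-score libraries alone 1 of these 4 was higher. The mitochondrial sodium-calcium exchanger Slc8b1 was at 22.8 ± 1.37 and 22.5 ± 4.50 CPM (0.02, adjusted p = 0.931).

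Per length of exon, the most abundant genes of the set were Slc9a3r1 (133 CPM per kb), the mitochondrial carriers Slc25a5 (132), Slc25a4 (80.9), Slc25a3 (71.9) and Slc25a11 (49.9), the choline carrier family member Slc44a2 (67.1) and the sugar carrier Slc50a1 (52.2). Among these 7, Slc9a3r1, Slc25a4 and Slc25a5 fell, each by less than 0.40 on the log2 scale, and Slc50a1 was at 69.1 ± 3.14 and 82.5 ± 10.7 CPM (-0.26, adjusted p = 0.0815). The oxoglutarate carrier Slc25a11 was at 101 ± 4.43 and 109 ± 7.16 CPM (-0.11, adjusted p = 0.308).

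Exon bases were shared with another annotated gene by 53 of the 177 carriers and by 14 of the 50 called ones. On chromosome 6, which carries Ezh2, lay 7 of the carriers, and 3 of these were called (Slc25a13, Slc25a26 and Slc35b4). Over all tested genes 21.9% were called. The share of all genes on chromosome 6 was not computed, so the count is a description only. Over the 21 alternative settings, 5 calls held in every one, those of Slc17a8, Slc9a2, Slc6a19 and Slc25a23 among them. Of these, Slc9a2 entered the set only through its level in the Ezh2-deficient libraries. In all 9 fits that left out 1 library, 29 of the 50 calls held.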

How the data were processed

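RNA was sequenced from 9 Treg cultures, 4 Ezh2-deficient and 5 WT, with a stranded mRNA kit per the labels' protocols. The authors deposited whole-number counts per gene that were not normalized. STAR and GRCm38 were used per the submitters' processing notes. How reads were counted, with which annotation and whether by strand, is not given in the sources used here. GENCODE M21 (GRCm38) gave symbols, positions and exon lengths for 42548 of 43432 identifiers. The carriers were chosen on counts divided by the column sum. Genes passing edgeR's default filter (13685 of 22839 with a count) were normalized by edgeR's default (TMM) and tested with edgeR 4.0.16's robust quasi-likelihood F-test in R 4.3.3, two-sided, with Benjamini-Hochberg adjustment over all tested genes and a threshold of 0.05. The biological coefficient of variation was 0.206. The script was tested on simulated data.

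Fold changes are Ezh2-deficient over WT on the log2 scale, n = 4 and n = 5, and ± is the SD. Reads carry no molecular identifiers, so precision from counting is an upper limit. No duplicated library was found (lowest chi-square per degree of freedom 21.9 between libraries). Genes were named as the 15 called carriers with the largest rise and the 15 with the largest fall, the 2 smallest adjusted p of each substrate group, the 10 highest levels per kb, a fixed set of 20 genes, and up to 3 genes of each partner list; Slc12a4, Slc25a12, Slc37a3, Slc25a24, Slc36a1, Slc35a1, Slc35b4, Slc35d1 and other small changes past the threshold, and Slc12a9, Oxsr1, Mt1, Mt2 and Bsg, were added after their values were seen. Slc40a1 and Slc22a2 of the fixed set were below 1 CPM. The carriers, groups and lists were chosen with earlier results of these data known. Alternatives were 5 other scalings or filters, DESeq2 1.42.0, limma-voom (limma 3.58.1), a replicate block, the hypoxia score, library subsets and leaving out each library. A few genes that entered the fits and counts are not reported here by name.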

Additional observations from a re-analysis of the deposited data

Results flagged for a closer look

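Among the named carriers, 7 had 1 library far from the others of its group, by the gap to the nearest other value against the whole range. Chance alone flags about 1 in 20 groups, and each of the 62 named carriers has 2 groups. Among WT libraries, replicate 3 was low for the vesicular glutamate carrier Slc17a7 (1.004 CPM, others 1.35 to 1.48) and high for the mitochondrial glutamate carrier Slc25a22 (45.1 CPM, others 27.2 to 30.9) and the nucleobase carrier Slc43a3 (143 CPM, others 113 to 120). WT replicate 4 was low for the phosphate importer Slc20a1 (111 CPM, others 133 to 142) and high for Slc4a11 (18.4 CPM, others 7.31 to 10.4). Ezh2-deficient replicate 4 was low for the nucleoside carrier Slc29a1 (79.2 CPM, others 118 to 120). Ezh2-deficient replicate 1 was low for the sugar phosphate carrier Slc37a2 (2.28 CPM, others 4.04 to 4.18), which did not pass the test (-0.54, adjusted p = 0.0933).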

How the results depend on the processing

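The count of carriers that rose was 28 and of those that fell 22. Over the scalings, filters, limma-voom and DESeq2 these were 25 to 29 and 17 to 33, with 33 falls by DESeq2. Within the high-score libraries they were 18 and 12, within the low-score libraries 7 and 3, where fewer samples were tested. Without the highest-Cd8a library of each group 13 fell. Leaving out 1 library at a time gave 21 to 28 rises and 11 to 32 falls, the lowest without Ezh2-deficient replicate 3 and the highest number of falls without WT replicate 5. The called share of carriers was 18.1% without Ezh2-deficient replicate 3, against 14.1% of all genes, and 33.9% without WT replicate 5, against 23.4%. By DESeq2 the share was 35%, against 24.2% of all genes, and by limma-voom 25.4%, against 21.8%. At this depth and number of libraries the smallest called change was that of Slc35e1 (-0.22 on the log2 scale).

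Replicate numbers did not pair the samples: same-numbered libraries correlated at -0.083 to 0.187 in their deviations from the group means, and none correlated best with its own number. With the replicate block 28 rose and 26 fell (30.5% called, against 20.1% of all genes), and 44 of the 50 calls were kept.

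Of 1301 values of named carriers under the alternatives, 143 lost their call, 20 gained one and 24 changed sign, all 24 in genes that did not pass the test. Slc17a9 was -0.039 in the high-score libraries and -0.043 to 0.12 with 1 library left out, and Slc30a1 was -0.35 in the low-score libraries and -0.081 to 0.23 with 1 left out. Slc35b1 was 0.053 with the replicate block, 0.0022 in the low-score libraries and -0.091 to 0.040 with 1 left out. Slc44a2 was -0.0028 in the high-score libraries and -0.033 to 0.054 with 1 left out. Slc4a7 was -0.072 in the low-score libraries, -0.031 without the highest-Cd8a libraries and -0.093 to 0.082 with 1 left out. Slc8b1 was -0.0088 with total counts only, -0.071 with the replicate block, -0.13 in the high-score libraries and -0.093 to 0.11 with 1 left out. The cause was not tested.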

Other observations

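Of 23 tested ABC transporters, pumps driven by ATP that are not among the solute carriers above, 2 rose and 2 fell (17.4%, against 21.9% of all tested genes). Abcg3, a rodent gene related to Abcg2, rose from 7.48 ± 1.73 to 20.8 ± 3.27 CPM (log2 fold change 1.47, adjusted p = 0.000201). Abcg2, the multidrug and urate exporter, rose from 24.3 ± 1.25 to 43.9 ± 6.71 CPM (0.85, adjusted p = 0.000271). The mitochondrial transporter Abcb8 fell from 53.4 ± 9.17 to 30.1 ± 5.75 CPM (-0.83, adjusted p = 0.00262), and the drug and glutathione-conjugate exporter Abcc1 fell from 99.5 ± 18.2 to 70.3 ± 12.7 CPM (-0.50, adjusted p = 0.0328). Of 10 organic anion transporters of the Slco family only 2 were tested; neither passed by edgeR, DESeq2 or limma-voom or had an unadjusted p under 0.05.

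Of the carriers below 1 CPM, 20 passed the filter on low counts, and 4 of these rose and 2 fell (30% called, against 21.9% of all tested genes). The rises were those of Slc18a1, a vesicular monoamine carrier (log2 fold change 2.75, adjusted p = 0.00459), the bicarbonate cotransporter Slc4a4 (1.83, adjusted p = 0.0401), the GABA carrier Slc6a13 (1.5, adjusted p = 0.0195) and Slc7a4 (1.21, adjusted p = 0.0455). The falls were those of Slc22a2, a kidney carrier of organic cations (-2.69, adjusted p = 0.0144), and Slc36a3 (-1.12, adjusted p = 0.0491). A gene that passed the filter only through the group where it is high had to differ, so the count and the share are a description. These levels are near the floor of the libraries, and the genes were named after their values were seen.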
